A study of Oryza sativa with 36 samples.

Results

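Cyclins, cyclin-dependent kinases (CDKs) and the Kip-related proteins (KRPs) that inhibit them were followed in young rice panicles under drought. The genes were taken by name: every rice gene of the RefSeq table whose symbol or synonym was that of a cyclin of type A, B, D, H, T or U, of a CDK of class A to G, or of a KRP. The rule found 43 genes, and no U-type cyclin was among them. Of these, 34 had a probe set of their own on the array, out of 17905 genes with such a probe set: 19 of 23 cyclins, 11 of 14 CDKs and 4 of 6 KRPs. The other 9, which are CYCA3-1, CYCB1-5, CYCD2-1, CYCT1-1, CDKB1-1, CDKC-2, CDKF-2, KRP2 and KRP3, were not analysed here. RefSeq gives the synonym CycB1-1 to the gene called CYCB1-3 here, and the synonym CYCT1-1 to the gene called CYCT1-4 here.

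A CDK phosphorylates its targets only while a cyclin is bound to it, so the set of cyclins in a cell decides which phase of the cell cycle the kinases drive. In plants, D-type cyclins with CDKA act at the entry into the cycle by releasing E2F factors from the retinoblastoma-related protein, A-type cyclins act mainly in DNA replication, and B-type cyclins with CDKB act at mitosis. KRPs bind cyclin and CDK complexes and hold them inactive, while the classes C, D, E, F and G of CDK and the cyclins H and T work largely on other kinases or on transcription and RNA processing. A young panicle is a tissue of dividing cells in which the floral organs are laid down and the pollen mother cells form, and cell division is one of the processes that water deficit is known to slow in plants.

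Young panicles about 2 cm long were collected from 6 varieties, either after 2 weeks of drying in enclosed plots or from well watered plants of the same variety, and 3 arrays were hybridized for each variety and treatment. MILT1444, EMATAYIN, DOURADOAGULHA and HUHAN3 are the 4 drought tolerant varieties, and KHAUMEO and NIPPONBARE are the 2 drought sensitive ones. DOURADOAGULHA and KHAUMEO are indica and the other 4 are japonica, as the study classifies them. The 36 arrays form 12 groups and come from 3 independent experiments in the study's words. Nothing in the labels ties an array to a plant, so the p-values measure the spread between arrays of a group. With 3 arrays in each of 2 groups, the smallest exact permutation p, two-sided, is 0.1.

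Values are RMA intensities on a linear scale, and changes are differences of log2 intensities, drought-stressed minus well watered, with the standard error (SE) of a limma fit over 57194 probe sets. A change passed where its p, adjusted by Benjamini-Hochberg over all probe sets, was 0.05 or less, and within a variety the 2-fold threshold of the study's methods was applied as well. Where a gene had several probe sets, the one with the highest mean stands for it. Array medians lay between 55.8 and 68.8, and arrays correlated with each other at 0.926 to 0.994 over all probe sets. The treatment showed in 6 of 6 listed drought genes, among them the dehydrin RAB21, whose average changes were between 1.52 and 3.72. In EMATAYIN alone 0 of the 6 passed in limma, where 0.11% of all probe sets passed. There 5 of the 6 had an unadjusted p of 0.05 or less, as did 11.8% of all probe sets, and the median change of the 6 was 1.86. Of 14 floral and panicle regulators measured from a list of 18, 4 passed as higher and none as lower, their summed intensity was 35001 to 41901 under drought and 32050 to 41416 with water, and the floral organ gene MADS16 stood between 5335 and 7112 under drought and between 5090 and 7269 with water. Of 6 tapetum and pollen wall genes measured 2 passed as lower and of 7 genes of green tissue 1 did, none as higher, with sums of 921 to 2620 and 4980 to 18511 under drought and of 843 to 2924 and 4982 to 20174 with water. Scaled to the actin gene ACT1, 9 of the 14 panicle genes passed as higher, 1 of the 6 tapetum genes passed as higher and none as lower, and of the 7 green tissue genes 1 passed in each direction. Without that scaling, 20.6% of all probe sets passed as higher on average and 21.5% as lower. With ACT1 scaling their median was 0.11, against -0.01 unscaled, so the scaled counts lean towards higher calls. The signal of each of the 34 cyclins, CDKs and KRPs ranked at or above 68.5% of the probe sets.

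Averaged over the 6 varieties, the changes of these genes under drought were small. Of the 34 genes, 12 (35.3%) passed, 9 higher and 3 lower, where 42.1% of all probe sets passed, 20.6% higher and 21.5% lower. Among the 17990 probe sets at least as bright as the dimmest of the 34, 50.4% passed, 32.8% higher and 17.6% lower. No member reached a 2-fold average change with its brightest probe set (0 of 34, against 0.383% of all probe sets). A dimmer probe set of CDKG-2 changed by 1.10. The median size of the change was 0.10 for the 34 genes, 0.14 for all probe sets and 0.13 for the equally bright ones, and the median signed change was 0.03 for the 34 genes and -0.01 for all probe sets. The genes that passed as higher were 2 inhibitors, KRP6 and KRP4, 4 cyclins, CYCA1-4, CYCH1-1, CYCD4-1 and CYCD5-2, and 3 kinases, CDKE-1, CDKG-1 and CDKG-2. Those that passed as lower were the mitotic cyclin CYCB2-2 and the kinases CDKA-2 and CDKB2-1. Scaling each array to the actin gene ACT1 moved the median of all probe sets to 0.11, and on that scale no member passed as lower and CDKB2-1 changed sign to 0.01. In whole panicles, a change in the number of cells of a type and a change of RNA per cell cannot be told apart.

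**Figure D1:**
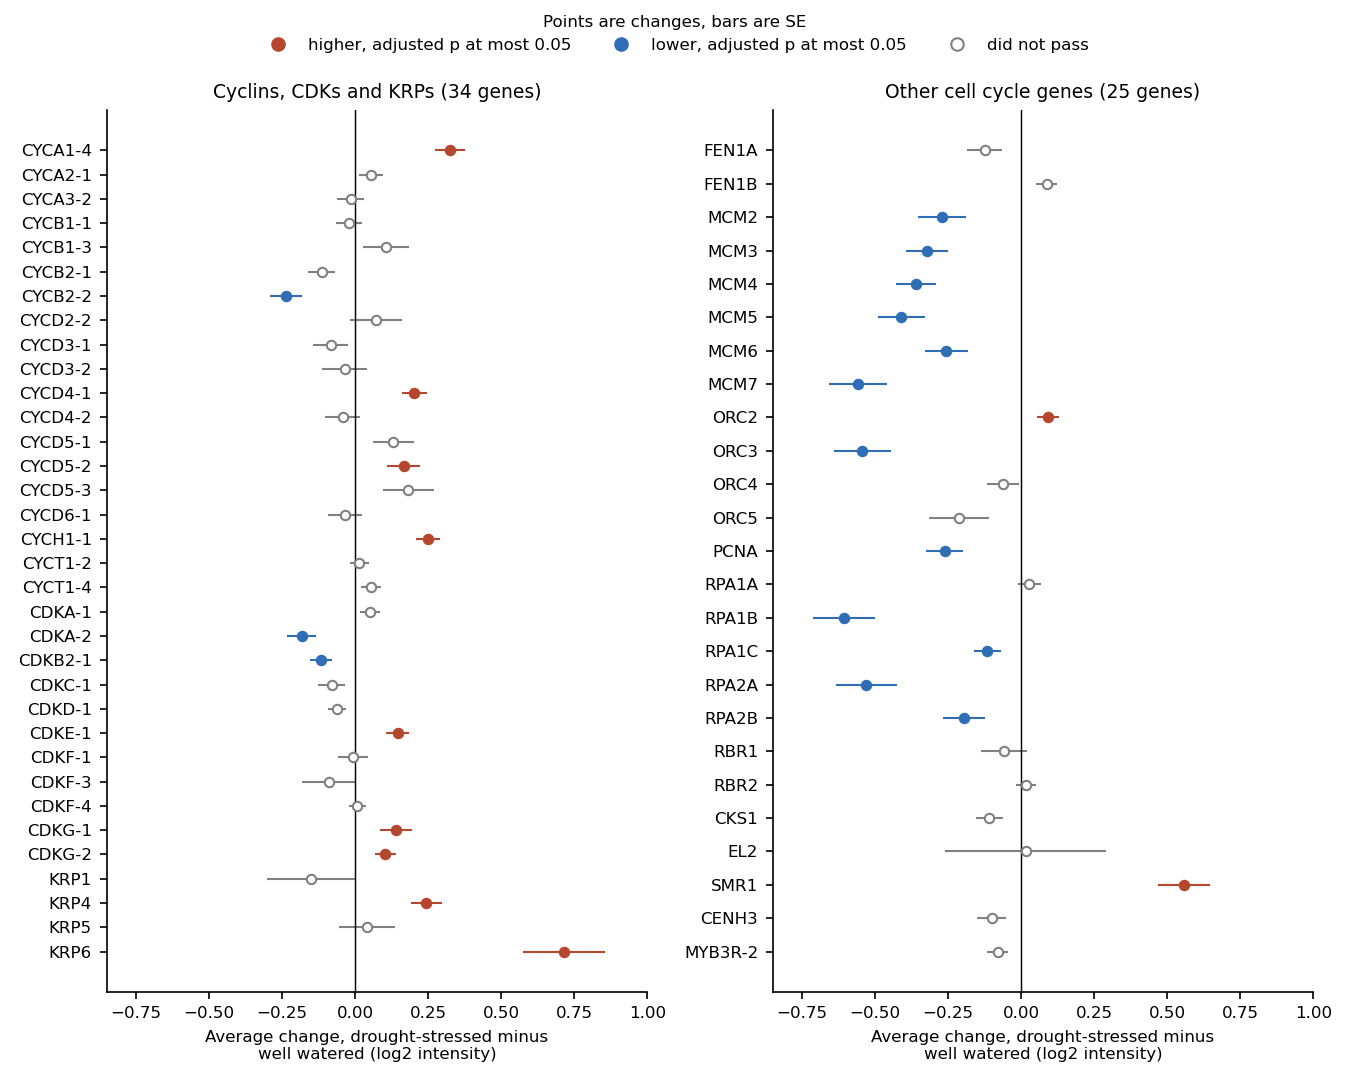
Average log2 change over 6 varieties, drought-stressed minus well watered, for the 34 cyclins, CDKs and KRPs and for 25 other measured cell cycle genes, with points for the change and bars for the SE of the fit. KRP6 lies farthest to the right at 0.72 and CYCB2-2 farthest to the left at -0.24 among the 34, while the replication genes on the right lie lower, down to -0.60 for RPA1B.

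KRP6, an inhibitor of the CDKA and D-type cyclin complexes, had the highest average change among the brightest probe sets of the 34 genes, 0.72 ± 0.14 (SE, n = 18 arrays each, limma adjusted p = 0.000211). In MILT1444 its intensity was 1176, 316 and 287 in the drought-stressed panicles, against 116, 146 and 236 in the well watered ones. The arrays of both treatments did not overlap, but a single drought-stressed array stood far above the rest. Its change was 1.58 ± 0.34 (SE, n = 3 each, limma adjusted p = 0.00909). Among the brightest probe sets of the 34 genes, it alone passed within a variety with the 2-fold threshold. By that rule 1.77% of all probe sets passed in at least 1 variety and 0.67% in MILT1444. A dimmer CDKG-2 probe set also passed by it, in MILT1444, HUHAN3 and NIPPONBARE. Without that first drought-stressed replicate the KRP6 change was 0.93 (limma adjusted p = 0.105), without the first well watered replicate 1.36 (adjusted p = 0.0619) and without the second 1.52 (adjusted p = 0.0565). The KRP6 call was thus lost without any 1 of these 3 arrays.

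EMATAYIN and HUHAN3, also japonica, shared the low well watered level. In EMATAYIN the KRP6 intensity was 275, 245 and 223 under drought, against 113, 132 and 178 with water, and in HUHAN3 it was 262, 335 and 221 under drought, against 219, 122 and 110 with water. Their changes of 0.83 and 0.91 did not pass (limma adjusted p = 0.338 and 0.118). The remaining varieties had more KRP6 signal before any stress. DOURADOAGULHA had 500, 446 and 543 under drought, against 340, 436 and 385 with water, KHAUMEO had 433, 449 and 510, against 399, 424 and 423, and NIPPONBARE had 621, 491 and 460, against 518, 338 and 311. In 5 of 6 varieties all 3 drought-stressed arrays lay above the 3 well watered ones, with NIPPONBARE as the exception, and the share of all probe sets with that order was between 8.16% in EMATAYIN and 16.5% in NIPPONBARE. A second, dim KRP6 probe set went the other way, with a median of 57.1 in the drought-stressed arrays and 66.7 in the well watered ones and an average change of -0.24 (limma adjusted p = 0.0175). The mean of both probe sets gave 0.24 (adjusted p = 0.0200), so the size of the KRP6 change rests on the brighter of them.

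KRP4, a second inhibitor of the same family, changed by 0.24 ± 0.05 on average (SE, n = 18 each, limma adjusted p = 0.000658). Its lowest, median and highest intensities were 959, 1357 and 1799 in the drought-stressed arrays, against 864, 1114 and 1621 in the well watered ones. The ranges overlapped widely, yet all drought-stressed arrays lay above the well watered ones in HUHAN3, KHAUMEO and NIPPONBARE. In HUHAN3 the intensities were 1789, 1628 and 1160, against 1067, 1073 and 1156, a change of 0.45 that passed only with no fold threshold (limma adjusted p = 0.0470) and was lost in 28 of 47 refits under other settings or without an array. KRP4 also has a dim second probe set, with medians of 56.4 under drought and 57.2 with water and a change of -0.20 (adjusted p = 0.0264). The mean of both probe sets gave 0.02 (adjusted p = 0.758), so that the call holds for the brightest probe set only.

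The other 2 inhibitors did not pass. KRP5, the brightest of the family, ranged from 1503 to 2777 under drought and from 1301 to 3219 with water, with an average change of 0.04 (limma adjusted p = 0.749). KRP1, which in rice is studied for its part in seed filling, had an average change of -0.15 ± 0.15 (adjusted p = 0.446) and differed in sign between varieties. In KHAUMEO its intensities of 136, 253 and 217 under drought all lay below the 446, 362 and 421 of the well watered arrays, an arrangement seen in 10.4% of all probe sets there. That change of -1.06 was past 2-fold and did not pass (adjusted p = 0.136). SMR1, a SIAMESE-related inhibitor of CDKs that the name rule did not take, was the 1 gene that passed of 3 measured from a list of 10 CDK regulators and rose by 0.56 ± 0.09 (limma adjusted p = 2.25e-05), with a median of 1366 under drought and 979 with water. All 3 of its drought-stressed arrays were above the well watered ones in MILT1444, EMATAYIN and DOURADOAGULHA. EL2, a rice gene of the SIAMESE family, had a change of 0.02 ± 0.28 (adjusted p = 0.969).

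**Figure D2:**
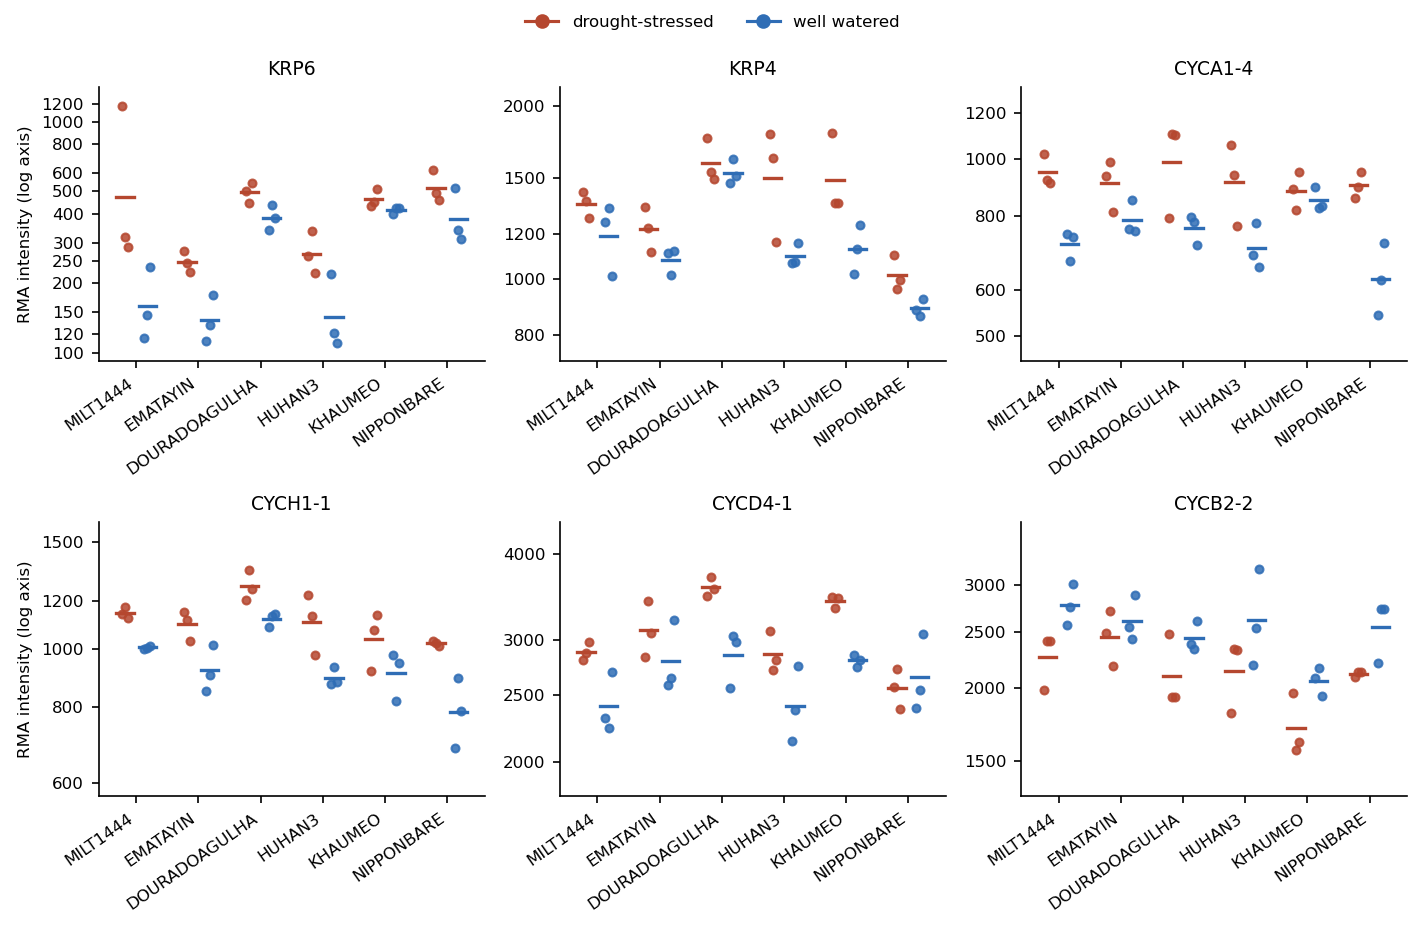
RMA intensity of each array on a log axis in 6 varieties for KRP6, KRP4, CYCA1-4, CYCH1-1, CYCD4-1 and CYCB2-2, with drought-stressed arrays left of well watered ones and a line at the geometric mean of 3 arrays. The KRP6 panel shows the array at 1176 in MILT1444 and the low well watered levels of MILT1444, EMATAYIN and HUHAN3, and the CYCH1-1 panel shows both treatments apart in all varieties but KHAUMEO.

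Among the cyclins, CYCA1-4 had the clearest rise. A1 cyclins act from DNA replication to mitosis, and in Arabidopsis a member of this group is needed for the meiotic divisions. CYCA1-4 changed by 0.32 ± 0.05 (SE, n = 18 each, limma adjusted p = 1.62e-05), with a lowest, median and highest intensity of 771, 931 and 1106 under drought, against 544, 751 and 899 with water. Of the 18 drought-stressed arrays, 12 lay above the highest well watered one. In NIPPONBARE it had 860, 899 and 954 under drought, against 544, 622 and 720 with water, a change of 0.53 (adjusted p = 0.00879) that was under 2-fold. In KHAUMEO its intensities were 889, 819 and 950, against 899, 827 and 834, so the treatments overlapped there and the change was 0.05. The other A-type cyclins did not pass: CYCA2-1, the brightest, changed by 0.05 (adjusted p = 0.278) and CYCA3-2 by -0.02 (adjusted p = 0.810).

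Some meiotic genes moved in the same direction as CYCA1-4, and their part in its values was not tested. Of 8 meiotic genes measured from a list of 16, 5 passed as higher and none as lower. The share of all probe sets that passed as higher was 20.6%. Among probe sets at least as bright as the dimmest cyclin, CDK or KRP it was 32.8%. SDS, DMC1 and PAIR1 were dimmer than that, so the 32.8% is not matched to the brightness of this list. The meiotic genes that passed ran from 0.13 for HEI10 to 0.37 for SDS, while PAIR1 had -0.03, CRC1 -0.05 and MEL1 0.07. HEI10 did not pass after quantile normalization (limma adjusted p = 0.403). SDS encodes a cyclin-like protein of meiocytes that the name rule did not take, and DMC1 encodes a meiotic recombinase. SDS had a median of 101 under drought and 76.9 with water, and DMC1 changed by 0.34 ± 0.07 (limma adjusted p = 0.000438). The summed intensity of the 8 genes was between 2978 and 7381 under drought and between 2676 and 6558 with water.

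CYCH1-1 is the regulatory partner of CDKD in the CDK-activating kinase, the complex that switches on other CDKs and also belongs to the general transcription machinery. It changed by 0.25 ± 0.04 (SE, n = 18 each, limma adjusted p = 2.57e-05), with 920, 1128 and 1349 as the lowest, median and highest intensity under drought, against 685, 940 and 1144 with water. Its 3 drought-stressed arrays lay above the 3 well watered ones in 5 of 6 varieties, all but KHAUMEO. In NIPPONBARE the intensities were 1030, 1021 and 1012, against 685, 896 and 790, and the change was 0.38 (adjusted p = 0.0164). Its kinase CDKD-1 did not move with it. CDKD-1 changed by -0.06 ± 0.03 and did not pass, and its range was 1785 to 2117 under drought and 1826 to 2232 with water, the narrowest spread between well watered varieties of all 34 genes at 0.14 between the highest and lowest group mean. CDKF-1, the kinase that in Arabidopsis phosphorylates CDKD, changed by -0.01 (adjusted p = 0.923), and CDKF-4, the brightest of its class, by 0.01, neither of which passed.

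By their brightest probe sets, the kinases tied to transcription and RNA processing changed by small amounts. CDKE-1, the counterpart of the Mediator kinase, rose by 0.15 ± 0.04 (limma adjusted p = 0.00470), and in NIPPONBARE it had 1651, 1643 and 1574 under drought, against 1287, 1362 and 1298 with water (change 0.30, adjusted p = 0.0448). CDKG-2 and CDKG-1, of a class that in Arabidopsis acts in splicing and in the pairing of meiotic chromosomes, rose by 0.10 (adjusted p = 0.0200) and 0.14 (adjusted p = 0.0420). The call of CDKG-1 was lost in 24 of 46 refits, and the mean of its probe sets gave 0.02 and did not pass. For CDKG-2 the mean of probe sets gave a larger change, 0.60 (limma adjusted p = 3.9e-07). CDKC-1 with the T-type cyclins is the counterpart of the animal kinase that releases paused RNA polymerase. None of its measured parts passed: CDKC-1 changed by -0.08 (adjusted p = 0.170), CYCT1-4 by 0.05 (adjusted p = 0.221) and CYCT1-2 by 0.02 (adjusted p = 0.727).

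The D-type cyclins were the largest group, with 9 genes measured, of which 2 (22.2%) passed as higher and none as lower. Of all probe sets 20.6% passed as higher and 21.5% as lower, and of the equally bright ones 32.8% and 17.6%. CYCD4-1, the brightest D-type cyclin, changed by 0.20 ± 0.04 (SE, n = 18 each, limma adjusted p = 0.000579). Its lowest, median and highest intensities were 2386, 3025 and 3696 under drought, against 2144, 2674 and 3203 with water. In DOURADOAGULHA it had 3477, 3696 and 3561 under drought, against 2559, 3038 and 2984 with water, and the treatments were also apart in MILT1444 and KHAUMEO. NIPPONBARE was the variety with a negative change, -0.05, on overlapping arrays. CYCD5-2 changed by 0.17 ± 0.06 (adjusted p = 0.0195), and the mean of its probe sets gave 0.05 (adjusted p = 0.352). CYCD5-1 had its widest change in KHAUMEO, where 745, 838 and 759 under drought lay above 544, 476 and 531 with water, a change of 0.60 that did not pass (adjusted p = 0.0696). The other 6 changed on average by between -0.08 for CYCD3-1 and 0.18 for CYCD5-3. The retinoblastoma-related genes RBR1 and RBR2, targets of the D-type complexes and the 2 genes measured from a list of 11 for that pathway, changed by -0.06 and 0.02, and neither passed.

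The lower calls came from genes of mitosis and of the basic kinase. CYCB2-2, a B2 cyclin of the transition into mitosis, fell by 0.24 on the log2 scale, a change of -0.24 ± 0.06 (SE, n = 18 each, limma adjusted p = 0.00115). Its lowest, median and highest intensities were 1571, 2132 and 2713 under drought, against 1941, 2541 and 3200 with water. All 6 varieties had a lower mean under drought, and the arrays were apart in MILT1444, with 1988, 2408 and 2408 against 2569, 2756 and 3017, and in NIPPONBARE, with 2089, 2134 and 2129 against 2209, 2727 and 2732. A second CYCB2-2 probe set, also bright, changed by -0.26 (adjusted p = 8.42e-05). CDKB2-1, the plant-specific mitotic kinase, changed by -0.12 ± 0.04 (adjusted p = 0.0147), with 3488 to 5064 under drought and 3711 to 5579 with water. CYCB2-1 had a change of -0.11, lower in 6 of 6 varieties, and missed the threshold (adjusted p = 0.0504). CYCB1-1, the brightest B-type cyclin and one that marks cells in and before mitosis, showed hardly any difference, with a median of 3923 under drought and 3991 with water and a change of -0.02 ± 0.04 (adjusted p = 0.751).

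CDKA, the kinase that D-type cyclins bind, has 2 copies in rice, of which 1 passed by its brightest probe set. CDKA-2 changed by -0.18 ± 0.05 (SE, n = 18 each, limma adjusted p = 0.00463), and 12 of its 18 drought-stressed arrays lay below the lowest well watered array, at 1023 to 1944 under drought and 1438 to 1862 with water. In KHAUMEO its intensities were 1023, 1331 and 1157, against 1607, 1550 and 1450. A second CDKA-2 probe set changed by -0.35 (adjusted p = 3.01e-05) and another by -0.01. CDKA-1 had a median of 2629 under drought and 2493 with water, and its change of 0.05 ± 0.03 did not pass (adjusted p = 0.218). A dimmer CDKA-1 probe set passed as lower, at -0.155 (limma adjusted p = 0.0196). The probe sets that stand for CDKA-1 and CDKA-2 are of the 2 kinds, marked s and x in the array's naming, whose probes can also match other transcripts, and the difference between the copies was not tested.

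Most measured genes that carry out DNA replication were lower. Of 18 measured from a list of 28, 12 passed as lower and 1 as higher, with a median change of -0.26, against the 21.5% of all probe sets and 17.6% of the equally bright ones that passed as lower. All 6 subunits of the MCM helicase, MCM2 to MCM7, passed as lower, and MCM7 changed by -0.56 ± 0.10 (limma adjusted p = 7.57e-05) with a median of 902 under drought and 1304 with water. RPA1B and RPA2A, subunits of the protein that coats single-stranded DNA, changed by -0.60 and -0.53, ORC3 of the origin recognition complex by -0.54, MCM4 by -0.36 and the sliding clamp PCNA by -0.26. ORC2, also of the origin recognition complex, passed as higher at 0.09 (adjusted p = 0.0497). Scaled to ACT1, 7 of the 18 passed as lower and 3 as higher, and after quantile normalization 15 passed as lower and 0 as higher, ORC2 not among those that passed (limma adjusted p = 0.550). The list was chosen with earlier results of these data known. The 2 genes measured of 21 in the list of mitosis and cyclin breakdown, the regulator MYB3R-2 and the centromeric histone CENH3, had changes of -0.08 and -0.10 that did not pass, and the CDK subunit CKS1 had -0.11 (adjusted p = 0.0580).

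The directions in single varieties were read next. CDKE-1, CYCA1-4, CYCD5-3, CYCH1-1, KRP4 and KRP6 had a higher mean under drought in 6 of 6 varieties, and CDKA-2, CYCB2-1 and CYCB2-2 a lower one, which is 9 of 34 genes, where 33% of all probe sets kept a direction, 15.6% higher and 17.4% lower, and 41.2% of the equally bright ones. With the adjusted p alone, 5 genes passed in some variety by their brightest probe set: KRP6 in MILT1444, KRP4 in HUHAN3, and CYCA1-4, CYCH1-1 and CDKE-1 in NIPPONBARE. Of all probe sets, 16.9% passed in at least 1 variety. In NIPPONBARE 11% of all probe sets passed by that rule, in HUHAN3 4.15% and in MILT1444 3.43%. All drought-stressed arrays stood above all well watered ones for 8 genes in KHAUMEO, where 12.3% of all probe sets had that order, and for 8 in NIPPONBARE (16.5%), 7 in HUHAN3 (11.8%), 5 in DOURADOAGULHA (13.1%), 4 in MILT1444 (11.3%) and 3 in EMATAYIN (8.16%). They stood below for 4 genes in NIPPONBARE (17.4% of all probe sets), 4 in DOURADOAGULHA (11.6%), 3 in KHAUMEO (10.4%), 2 in MILT1444 (9.87%), 1 in EMATAYIN (8.26%) and 0 in HUHAN3 (12.5%). HUHAN3 was the variety in which no gene of the 34 stood below, and each of the other 5 had genes on both sides.

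**Figure D3:**
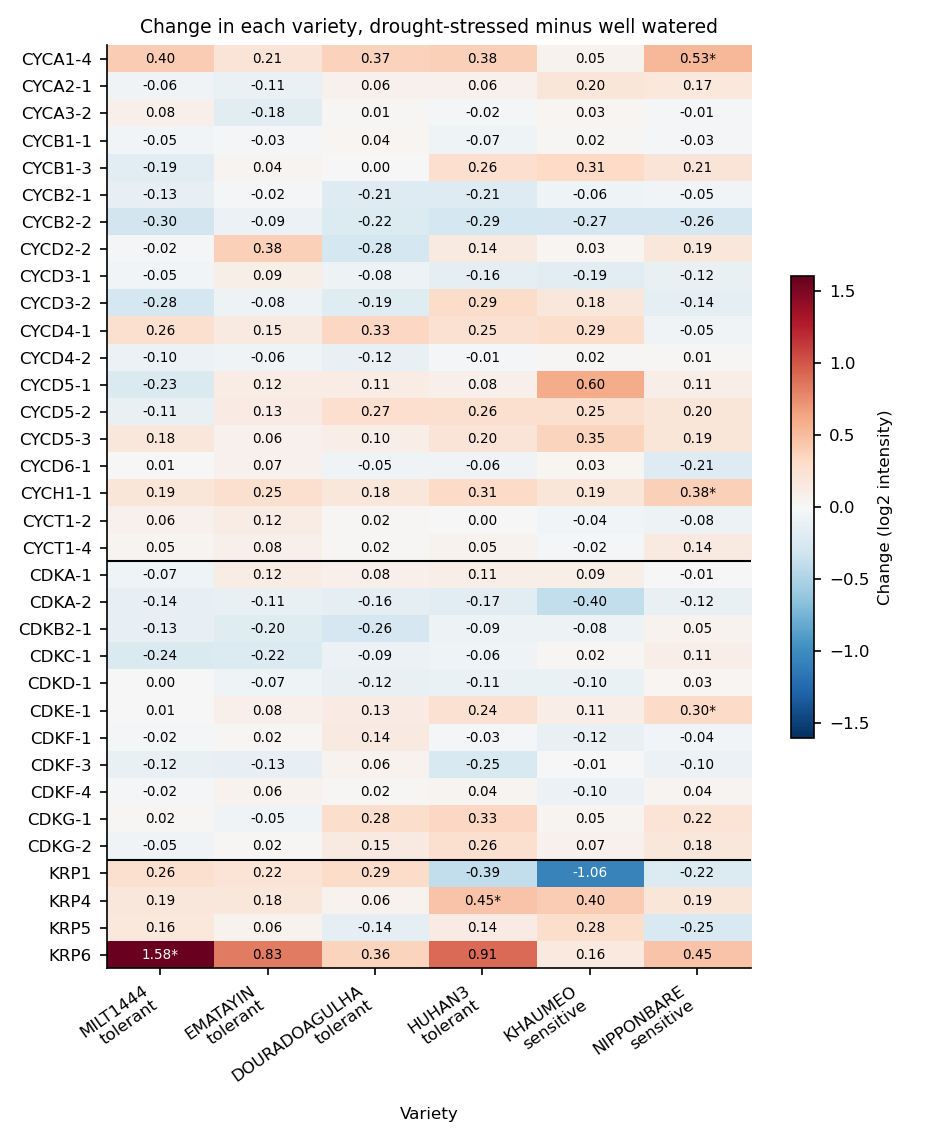
Log2 change of the 34 genes in each variety, drought-stressed minus well watered, as colour and number, with the 4 tolerant varieties left of the 2 sensitive ones and a star at a limma adjusted p of at most 0.05. KRP6 is the row with the darkest red, up to 1.58 in MILT1444, KRP1 turns from 0.29 in DOURADOAGULHA to -1.06 in KHAUMEO, and most other cells lie near 0.

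Whether the varieties responded differently was tested directly. The interaction of variety and treatment, tested with limma's F test, passed for 0 of 34 genes after adjustment and for 0 before it, and 0.0542% of all probe sets passed after adjustment and 7.32% before. The smallest p among the 34 was that of CYCD5-1 (limma adjusted p = 0.708), followed by KRP6, KRP1, CYCA1-4 and CDKG-2. Between the tolerant and the sensitive varieties the response of 0 of 34 genes differed after adjustment, as for all probe sets, where 0% passed. At an unadjusted p, 5 of the 34 differed, where 6.28% of all probe sets did. KRP1 responded by 0.74 ± 0.32 (SE) more and KRP6 by 0.62 ± 0.30 more in tolerant than in sensitive varieties (limma adjusted p = 0.774 and 0.792). CYCD5-1, CDKC-1 and CYCA2-1 responded by -0.33, -0.21 and -0.19 relative to the sensitive varieties. The responses of indica and japonica differed for 0 of 34 genes after adjustment, where 0.0455% of all probe sets passed, and for 2 before it, where 8.85% did. These were KRP6, at -0.69 ± 0.30, and CYCD5-1, at 0.33 ± 0.15, indica minus japonica. These intervals are wide, and a test that misses its threshold does not show that the varieties respond alike.

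The varieties also differed from each other without any stress. Over the 6 well watered groups, the limma F test passed for 20 of 34 genes (58.8%), against 34% of all probe sets and 50.7% of the equally bright ones. KRP6 had the widest span, with 415 ± 13.9, 387 ± 48.3 and 389 ± 112 in well watered KHAUMEO, DOURADOAGULHA and NIPPONBARE, against 166 ± 62.3, 150 ± 59.7 and 141 ± 33.7 in MILT1444, HUHAN3 and EMATAYIN (SD, n = 3 each, limma adjusted p = 7.99e-05). Within each of these 2 trios neighbouring varieties overlapped, and the gap lay between NIPPONBARE and MILT1444. CYCD5-3 had the next widest span, in the order of the log2 means from 654 ± 90.4 in MILT1444 through 662 ± 221 in HUHAN3, 595 ± 137 in EMATAYIN and 550 ± 68.1 in NIPPONBARE to 347 ± 97.2 in DOURADOAGULHA and 236 ± 11.5 in KHAUMEO (SD, n = 3 each, limma adjusted p = 2.08e-06). The first 4 overlapped, and the 2 indica varieties lay below them and apart from each other.

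**Figure D4:**
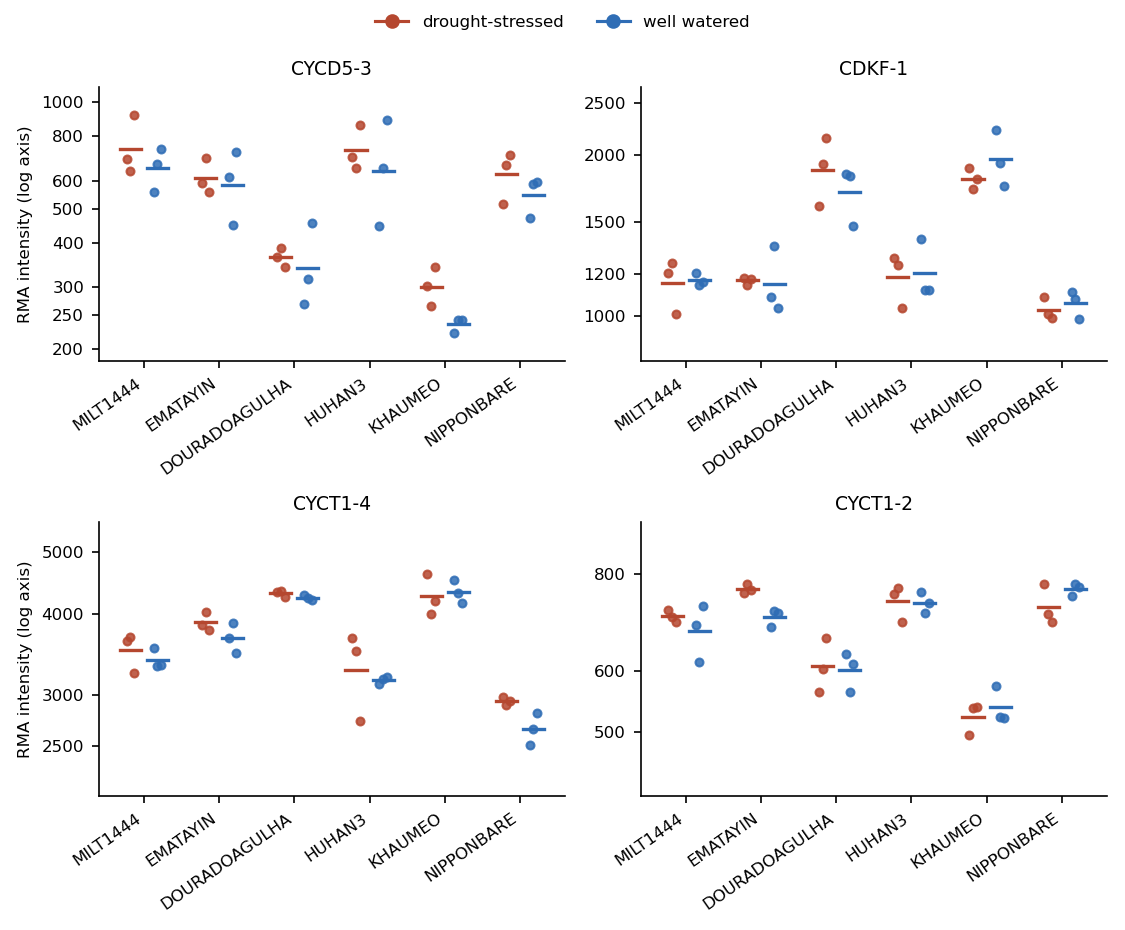
RMA intensity of each array on a log axis in 6 varieties for CYCD5-3, CDKF-1, CYCT1-4 and CYCT1-2, with drought-stressed arrays left of well watered ones and a line at the geometric mean of 3 arrays. The means of DOURADOAGULHA and KHAUMEO lie below those of the other varieties for CYCD5-3 and CYCT1-2 and above them for CDKF-1 and CYCT1-4, in both treatments.

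Indica and japonica varieties were also set against each other. In well watered panicles 16 of 34 genes (47.1%) differed between indica and japonica, 10 higher and 6 lower in indica, against 27.3% of all probe sets, 11.1% higher and 16.1% lower, and 41.2% of the equally bright ones. CDKF-1 was 0.68 ± 0.08 higher in indica (SE, limma adjusted p = 2.32e-08), with 1970 ± 241 in KHAUMEO and 1714 ± 210 in DOURADOAGULHA, against 1057 to 1210 as means of the 4 japonica varieties. CYCT1-4 was 0.42 ± 0.05 higher (adjusted p = 2.20e-07), with means of 4327 and 4242 in the indica varieties, against 2658 in NIPPONBARE to 3676 in EMATAYIN. CYCT1-2 was 0.34 lower in indica, a difference of -0.34 ± 0.05 (adjusted p = 1.30e-06), and CYCD5-3 differed by -1.10 ± 0.13 (adjusted p = 5.65e-08). KRP6 was 1.11 ± 0.21 higher in indica (adjusted p = 0.000123), although NIPPONBARE, a japonica variety, stood with the indica ones. The array was designed on the NIPPONBARE genome, and a level of RNA and a mismatch of the probes to another variety's allele cannot be told apart in these values.

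Tolerant and sensitive varieties also differed before any stress. In well watered panicles 13 of 34 genes (38.2%) passed, 11 higher and 2 lower in the tolerant varieties, against 13.8% of all probe sets and 20.3% of the equally bright ones. The share higher was 6.36% over all probe sets and 10.6% over the equally bright ones, and the share lower was 7.39% over all probe sets. Of the 9 D-type cyclins, 5 were higher in the tolerant varieties and none lower: CYCD5-3 by 0.58, CYCD3-2 by 0.45, CYCD5-2 by 0.41, CYCD4-2 by 0.37 and CYCD5-1 by 0.32. Both sensitive varieties had the lowest means for CYCD3-2 and CYCD5-2. For CYCD5-3 tolerant DOURADOAGULHA, at a mean of 347, lay below sensitive NIPPONBARE, at 550, without overlap. With overlapping arrays, DOURADOAGULHA (1699.7) lay below NIPPONBARE (1736.5) for CYCD4-2, and tolerant HUHAN3 (471) below sensitive KHAUMEO (517) for CYCD5-1. CDKB2-1 (0.26), CYCB2-1 (0.28), CYCA2-1 (0.20), CYCH1-1 (0.21), CDKC-1 (0.22) and KRP4 (0.28) were higher as well, while KRP6 (-1.09 ± 0.21 SE, limma adjusted p = 0.000347) and KRP1 (-0.79 ± 0.23, adjusted p = 0.0186) were lower. Both sensitive varieties had the lowest means for CDKB2-1, CYCB2-1 and CYCA2-1. Sensitive KHAUMEO stood above tolerant HUHAN3 for CYCH1-1 (914 against 896) and KRP4 (1130 against 1099), with overlapping arrays. For CDKC-1 KHAUMEO (555) stood above EMATAYIN (543), with overlapping arrays, and above the means of MILT1444 (529) and HUHAN3 (514). For KRP6, tolerant DOURADOAGULHA, at 387 ± 48.3, overlapped sensitive KHAUMEO, at 415 ± 13.9, and NIPPONBARE, at 389 ± 112 (SD, n = 3 each). MILT1444, HUHAN3 and EMATAYIN lay below these and apart from them. Well watered KRP1 averaged 295 ± 182 in MILT1444, 263 ± 46.1 in EMATAYIN, 240 ± 136 in DOURADOAGULHA and 433 ± 103 in HUHAN3, against 410 ± 42.8 in KHAUMEO and 587 ± 128 in NIPPONBARE (SD, n = 3 each). HUHAN3, a tolerant variety, thus stood above KHAUMEO, a sensitive one, with overlapping arrays. With the mean of its probe sets KRP4 differed by -0.07 (limma adjusted p = 0.664), so its direction here holds for the brightest probe set only. Without the first well watered replicate of NIPPONBARE, 8 genes passed. Under drought 5 of 34 (14.7%) passed, against 10.3% of all probe sets and 13.1% of the equally bright ones, all 5 higher in the tolerant varieties, as were 5.18% of all probe sets: CYCD5-3 by 0.44, CYCD3-2 by 0.37, CYCD5-2 by 0.32, CYCD4-2 by 0.28 and CYCT1-2 by 0.19. For CYCD5-3 and CYCT1-2 the order under drought followed subspecies, with the mean of tolerant indica DOURADOAGULHA below that of sensitive japonica NIPPONBARE. The sensitive class holds only 2 varieties, indica KHAUMEO and japonica NIPPONBARE, and DOURADOAGULHA is the only indica variety among the tolerant ones. These tests rest on the spread between arrays and not between varieties.

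CDKG-2 is the gene whose probe sets disagreed most in size. Its brightest probe set lay between 2122 and 3000 under drought and between 1840 and 2703 with water, and changed by 0.10 ± 0.04 (SE, n = 18 each, limma adjusted p = 0.0200). The second probe set had a lowest, median and highest intensity of 201, 303 and 416 under drought, against 86.3, 135 and 258 with water, and 14 of 18 drought-stressed arrays lay above the highest well watered one. Its average change of 1.10 ± 0.12 (adjusted p = 1.62e-07) was past 2-fold. In MILT1444 it had 330, 351 and 329 under drought, against 106, 100 and 170 with water, a change of 1.47 (adjusted p = 0.00524). It also passed with 2-fold in HUHAN3, at 1.11 (adjusted p = 0.0320), and in NIPPONBARE, at 1.17 (adjusted p = 0.0140). The dimmest probe set had 87.1, 140 and 222 under drought, against 48.0, 96.7 and 151 with water, and changed by 0.61 ± 0.11 (adjusted p = 0.000111). The brightest probe set is of the kind, marked a, that covers several transcripts of a gene, and the second is of the kind marked x. Whether the dimmer probe sets read other transcripts of CDKG-2 was not tested.

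**Figure D5:**
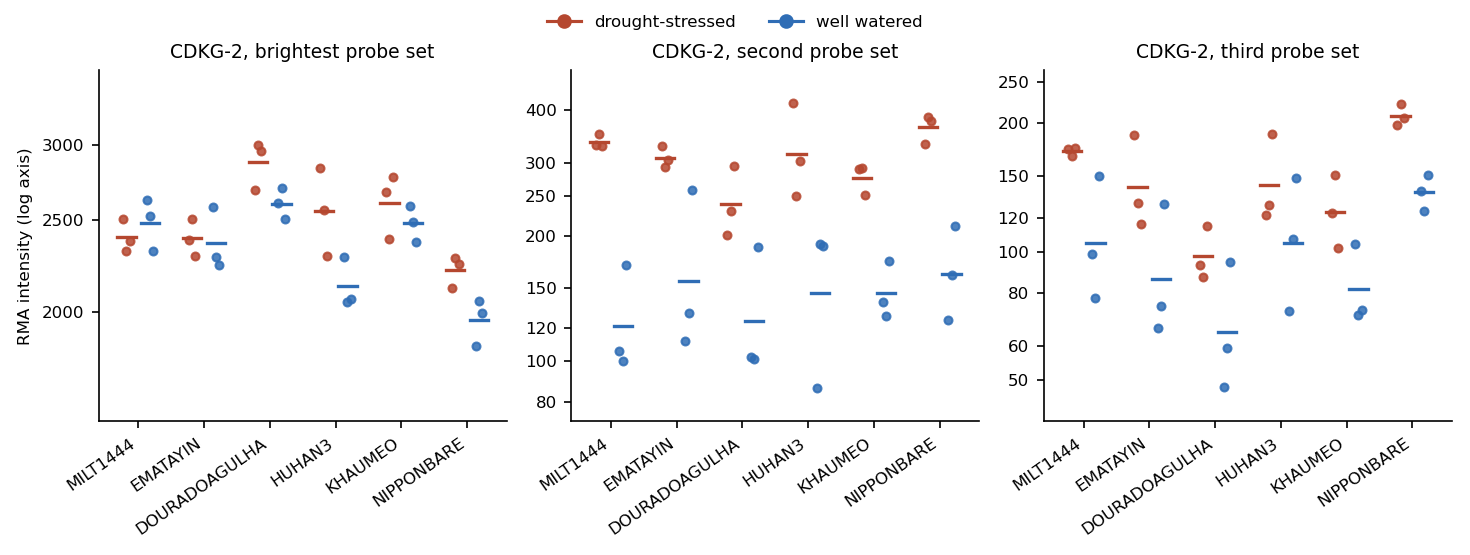
RMA intensity of each array on a log axis in 6 varieties for the 3 probe sets annotated to CDKG-2, with drought-stressed arrays left of well watered ones and a line at the geometric mean of 3 arrays. The treatments overlap for the brightest probe set in 4 of 6 varieties, and lie apart for the second in all 6.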

How the data were processed

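Values are intensities of the Affymetrix rice array in 36 samples. The authors made these deposited intensities with RMA in the affy package and gave them on a linear scale. The step back to that scale is not given in the sources read. Values ran from 1 to 21699, 112 of them at 1. The platform annotation, with symbols from RefSeq, paired 22436 probe sets with 1 gene and 95 with several, which named no gene.

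The log2 intensities of 57194 probe sets, without 187 controls, were fitted with limma 3.58.1 in R 4.3.3 on 12 group means, with Benjamini-Hochberg adjustment within each contrast, and tested on simulated data. Intensities carry no read depth, so the number of arrays limits the precision. Named were genes past 2-fold, the 10 with the smallest p on average, the 5 in each of the interaction and well watered F tests, the brightest of each class and 6 other cell cycle genes. Further genes were picked by name with their values in view. The members, 9 gene lists and tests were chosen with earlier results of these data known. Alternatives were a fit per variety, a trended and robust eBayes, a brightness filter, a replicate block, a pseudocount of 50, quantile normalization, scaling to ACT1, the mean of a gene's probe sets, unadjusted p, other fold thresholds and leaving out replicates.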

Additional observations from a re-analysis of the deposited data

Results flagged for a closer look

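Probe sets that did not stand for their gene also changed on average over the 6 varieties, drought-stressed minus well watered (limma fit over all probe sets, n = 18 arrays each). For CDKG-2 the changes were 1.1 (adjusted p = 1.62e-07) and 0.613 (adjusted p = 0.000111), for CDKA-2 -0.352 (adjusted p = 3.01e-05) and for CYCB2-2 -0.265 (adjusted p = 8.42e-05), each in the direction of the gene's brightest probe set. Those of KRP6 at -0.238, KRP4 at -0.201 and CDKA-1 at -0.155 had the opposite sign to the brightest one, and that of CDKF-4 was -0.199 beside 0.01 for the brightest.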

How the results depend on the processing

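Of 71 calls of single genes, 3271 refits kept the call in 2925, lost it in 343 and turned the sign in 3: CDKB2-1 on average when scaled to ACT1 (0.00905, limma adjusted p = 0.869) and, with the mean of a gene's probe sets in well watered panicles, CDKG-2 between indica and japonica (-0.159) and KRP4 between tolerant and sensitive varieties (-0.0651). Lost in more refits than kept were the call of KRP4 in HUHAN3 (28 of 47) and, of 46 each, those of CDKG-1 on average (24), CDKF-4 among well watered varieties (28) and between indica and japonica (27), and CYCD4-2 between tolerant and sensitive under drought (26). CYCA1-4, CYCH1-1 and KRP6 kept their average call in all 46 refits, though the mean of probe sets took KRP6 to 0.24. Without whole replicates the 12 average calls became 5 to 11, and single arrays left out gave 11 to 14; with at least 2-fold there were 0. The 9 higher became 17 when scaled to ACT1, 5 with the mean of probe sets and 4 to 10 with arrays left out. The 3 lower became 5 with the pseudocount of 50, 6 after quantile normalization, 0 when scaled to ACT1, 5 with unadjusted p and 1 to 4 with arrays left out. The 1 gene past 2-fold in a variety became 0 with the mean of probe sets or each variety fitted alone, 2 with unadjusted p, 5 with no fold threshold and 0 to 1 with arrays left out. For the response of tolerant against sensitive varieties, 0 became 5 with unadjusted p. With arrays left out, the 20 genes that differed among well watered varieties became 3 to 22, the 16 between indica and japonica 5 to 17, the 13 between tolerant and sensitive, well watered, 3 to 14, and the 5 under drought 0 to 8, which became 3 when scaled to ACT1 and 10 with unadjusted p. The lowest of these came without replicate 2 of every group, where 16.4% of all probe sets passed on average, against 35.6% without replicate 1 and 37% without replicate 3. Without replicate 2, 14.5% of all probe sets differed among well watered varieties and 15.4% between indica and japonica. Between tolerant and sensitive 5.44% differed well watered and 5.32% under drought. In the main fit these 4 shares were 34%, 27.3%, 13.8% and 10.3%. The cause of the drop was not tested.

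Single drought-stressed arrays moved the count of genes that differed between tolerant and sensitive varieties under drought to 2 without KHAUMEO replicate 2 or NIPPONBARE replicate 1, to 3 without MILT1444 replicate 2 or 3, EMATAYIN replicate 2, DOURADOAGULHA replicate 1 or KHAUMEO replicate 3, and to 8 without MILT1444 replicate 1. CYCB2-2 (-0.11, limma adjusted p = 0.147) and CDKA-2 (-0.06, adjusted p = 0.213) lost their average call when scaled to ACT1, CDKE-1 (adjusted p = 0.282), CYCD5-2 and KRP4 with the mean of probe sets, and CYCD5-2 (adjusted p = 0.0685), CDKG-2 (adjusted p = 0.075) and CDKG-1 (adjusted p = 0.102) after quantile normalization.

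Within a variety, replicate numbers showed little pairing of drought-stressed with well watered arrays. In 18 pairs of same-numbered arrays the deviations correlated at -0.30 to 0.20, and 4 were above 0.1. An effect of the replicate number shared across varieties within a treatment was not tested, and the SEs treat arrays as independent. With the replicate number as a block, 10 genes passed on average, 8 higher and 2 lower, and 1 passed 2-fold in a variety. Comparisons between varieties instead used a correlation between same-numbered arrays of a variety, estimated at -0.04. Such a fit stays close to the main one, so it is a weak check. In it 20 genes differed among well watered varieties, 16 between indica and japonica, and between tolerant and sensitive 13 well watered and 5 under drought. The block ended the calls of CDKB2-1 and CDKG-1 on average (adjusted p = 0.0503 and 0.0598), of KRP4 in HUHAN3 (adjusted p = 0.109), and of CYCH1-1 and CDKE-1 in NIPPONBARE (adjusted p = 0.058 and 0.0881).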
